A study of Mus musculus with 2 samples.

Results

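The solute carrier (Slc) transporters described here are the 25 genes of the deposited expression table whose symbol begins with Slc and a digit, out of 2000 genes in the table. The table holds 27 such symbols, and Slc2a1 and Slc7a2 were left out by the rule that defined the set. The rule used gene names only. Single-cell RNA profiles came from whole pancreatic tumors of mice, collected 14 days after orthotopic transplantation of MT4, a line of pancreatic adenocarcinoma organoids derived from KPC mice. The fl/fl library was made from C57/BL6 Ahr fl/fl mice, in which both copies of the aryl hydrocarbon receptor gene are flanked by sites for Cre recombinase. The cKO library was made from mice with the same floxed alleles and LysM-Cre, a Cre that acts mainly in macrophages, monocytes and neutrophils. Lymphocytes are thus not its main targets, and transplanted tumor cells come from the organoid line and not from these mice. Each library pooled the tumors of 3 mice and was sorted for live cells with DAPI, and the tumors of both came from the same transplanted line.

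Solute carriers are membrane proteins that move amino acids, sugars, metals, ions, nucleosides and other small molecules across the cell surface or the membranes of organelles, driven by gradients and not by ATP. Family numbers group them by sequence, and most families carry one kind of cargo, such as cystine and cationic amino acids (family 7) or metabolites of the inner mitochondrial membrane (family 25). In tumors they are known for feeding cancer cells with glucose and amino acids, for exporting lactate and for handling iron and cystine in myeloid cells.

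Cargo was assigned by family number. On that basis 7 of the 25 genes fall under amino acids or related compounds and 5 under inorganic ions. Mitochondrial carriers have 4 genes, metals 2 and lipids or choline 2. Another 2 carry organic cations or vesicular glutamate, and sugars, monocarboxylates and nucleosides have 1 gene each. All 25 genes were found in the GENCODE vM21 annotation of GRCm38, the build of the files. None overlaps another coding gene on the same strand, and 3 overlap one on the other strand: Slc25a21 (Pax9), Slc24a5 (Myef2) and Slc22a3 (Plg). Whether reads were counted by strand is not given in the sources used here, so for these 3 genes the reads of the partner cannot be told apart.

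For 17 of the 25 genes RefSeq's promoter table (GRCm38.p6) holds the bases before a start site. The promoters of 3 genes are shown because their genes stand for the myeloid and erythroid patterns described further on. Each run is the 250 bases before the RefSeq start site, 5′ to 3′ on the strand of the gene, and capitals mark matches of the motifs searched. Slc7a11, the cystine and glutamate exchanger, lies on the minus strand (chr3:50443614-50443863). Slc38a5, a glutamine and neutral amino acid transporter, lies on the plus strand (chrX:8271131-8271380). Slc43a1, a transporter of large neutral amino acids, lies on the plus strand (chr2:84840073-84840322). GENCODE starts both plus-strand genes further upstream, Slc38a5 at 8271133 and Slc43a1 at 84838850, so by that annotation these windows lie inside the genes, except the outermost bases of that of Slc38a5. GENCODE's Slc7a11 begins at 50443614, the base of its window nearest the start.
Slc7a11: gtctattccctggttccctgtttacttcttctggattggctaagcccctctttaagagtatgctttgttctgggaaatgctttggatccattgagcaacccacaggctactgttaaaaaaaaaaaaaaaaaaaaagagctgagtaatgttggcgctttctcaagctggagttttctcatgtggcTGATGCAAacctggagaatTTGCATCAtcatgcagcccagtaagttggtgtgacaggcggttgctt
Slc38a5: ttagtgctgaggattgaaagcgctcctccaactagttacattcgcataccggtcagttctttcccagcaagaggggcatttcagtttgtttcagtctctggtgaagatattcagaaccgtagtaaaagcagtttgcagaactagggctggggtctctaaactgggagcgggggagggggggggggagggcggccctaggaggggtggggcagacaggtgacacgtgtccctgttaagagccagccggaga
Slc43a1: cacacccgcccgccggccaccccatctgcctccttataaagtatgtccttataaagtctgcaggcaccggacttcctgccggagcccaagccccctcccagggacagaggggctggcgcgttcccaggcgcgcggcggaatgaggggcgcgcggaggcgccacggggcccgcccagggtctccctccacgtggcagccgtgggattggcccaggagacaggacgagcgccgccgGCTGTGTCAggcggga

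TGATGNAA, the site type bound by ATF4 with a C/EBP partner, matched at 2 places in the Slc7a11 promoter, with first bases 66 and 47 bases upstream of the start. The 17 genes have 30 promoters in the table, because some have several start sites. TGATGNAA, searched on both strands, was in 3.45% of all 32851 promoters and in 1 of these 30, that of Slc7a11. TGACNNNGC, the core of the antioxidant response element, was in 10.2% of all promoters and in 5 of the 30. These belong to Slc16a1, Slc29a1, Slc43a1 and Slc7a1, and the Slc43a1 match starts 16 bases upstream. AGATAA, the letters bound by GATA factors, stood in 9.99% of all promoters and in 2 of the 30, which belong to Slc24a5 and Slc29a1. No letters of the 3 motifs stood in the Slc38a5 window. These matches describe letters in a window and no binding was measured.

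The table gave a scaled score per gene and cell in SDs of the gene, for 5196 fl/fl and 4577 cKO cells, capped at 10. Most fl/fl cells shared the lowest score of a gene, called its zero level here (for the median gene 96% of them), and the share of fl/fl cells above it is the main measure of level. Shares carry exact Clopper-Pearson 95% intervals, which cover counting error only. The cKO values looked shifted, which was inferred from these scores. The median gene kept the fl/fl zero level in 55.7% of cKO cells and fell below it in 15.3%, so no share above zero is given for the cKO library. Clusters made without the Slc genes gave 12 classes named from marker genes and 3 unnamed clusters. The number of molecules per cell is unknown. The median number of genes above zero per fl/fl cell was 147 in Tumor epithelial-like, 143 in Macrophage-like, 122 in Erythroid-like, 97.5 in Immature neutrophil-like, 75 in B-lineage-like and 73 in Neutrophil-like cells. Scaled values cannot be thinned to 1 depth, so the part of this range in the differences between classes was not tested. Ahr itself was above zero in 18.2% of Macrophage-like fl/fl cells (96 of 527, 15.01% to 21.8%). Its mean scaled value there was 0.0779 in the fl/fl and 0.250 in the cKO library, but which part of Ahr is deleted is not stated, so this value does not check the deletion.

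The libraries shared cell barcodes, which separate captures should do only rarely. There were 656 barcodes found in both, 12.6% of fl/fl and 14.3% of cKO cells. Nearly all of them lay in 3 places. Unnamed cluster 0, led by Vim, Atf3, Cd14 and Ccl2, had a shared barcode in 330 of its 346 fl/fl cells (95.4%) and 337 of its 341 cKO cells (98.8%). Monocyte-like cells had one in 56.0% of fl/fl and 64.1% of cKO cells, and DC-like cells in 10.2% and 15.9%. In every other class the share was at most 4.43%. Within unnamed cluster 0, the same barcode in both libraries had a median correlation across genes of 0.416 between its cells, against -0.0064 for other pairs, and 307 of 324 barcodes matched their own partner best. In Monocyte-like cells 173 of 235 did so, and in DC-like cells 28 of 31. For these cells the libraries cannot be told apart as separate samples. Unnamed cluster 0 is therefore not compared between libraries, and differences in Monocyte-like and DC-like cells are given with and without shared barcodes.

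**Figure D1:**
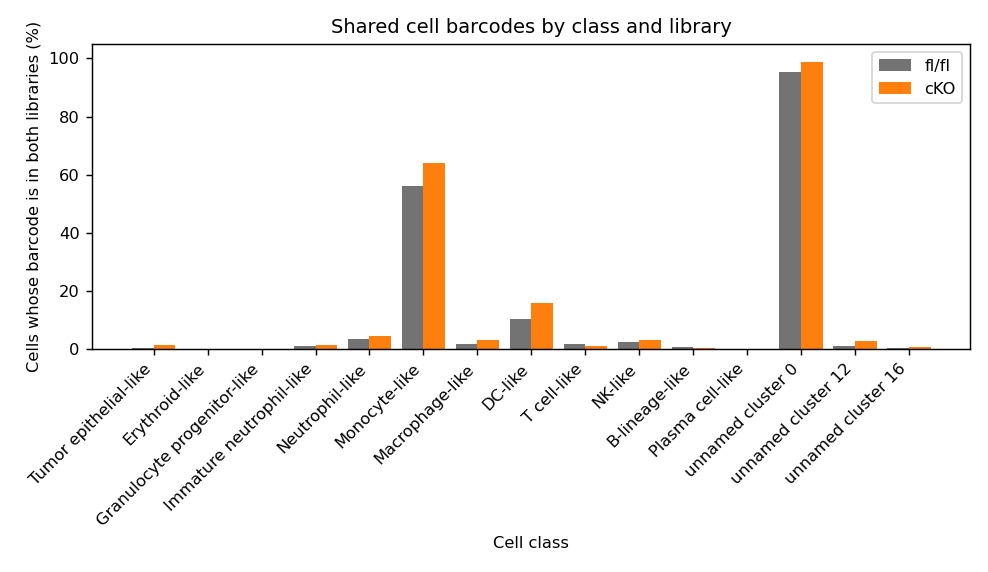
Share of cells (%, y axis) whose barcode is found in both libraries, for each class (x axis), with grey bars for fl/fl and orange bars for cKO. Unnamed cluster 0 stands at 95.4% and 98.8%, Monocyte-like cells at 56.0% and 64.1%, DC-like cells at 10.2% and 15.9%, and all other classes at 4.43% or less.

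A share of 10% or more in a class holding 50 fl/fl cells or more was reached by 15 of the 25 genes. Of all 2000 genes 69.1% were, so the share of Slc genes was near the background. By the class with the highest share, 11 genes led in Tumor epithelial-like cells (44%, against 41% of all genes), 8 in Erythroid-like cells (32% against 19.9%), 2 in Immature neutrophil-like, and 1 each in Neutrophil-like, DC-like and T cell-like cells. The last, Slc38a4, was above zero in no named class. At a clustering resolution of 2, where the Erythroid-like class is larger, Slc16a1 instead led in Tumor epithelial-like cells (26.9% against 16.7%) and Slc43a3 in a Fibroblast-like class (21.8% against 15.5%). Slc1a2 and Slc27a3 then also led in that class, each above zero in 2 of its 55 fl/fl cells (3.64%). Slc1a2 stood at 2.60% of Tumor epithelial-like and Slc27a3 at 1.68% of DC-like cells. The class with the highest mean was the same in the cKO library for 21 of the 24 genes above zero in a named class (87.5%), against 81% of such genes in the table.

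**Figure D2:**
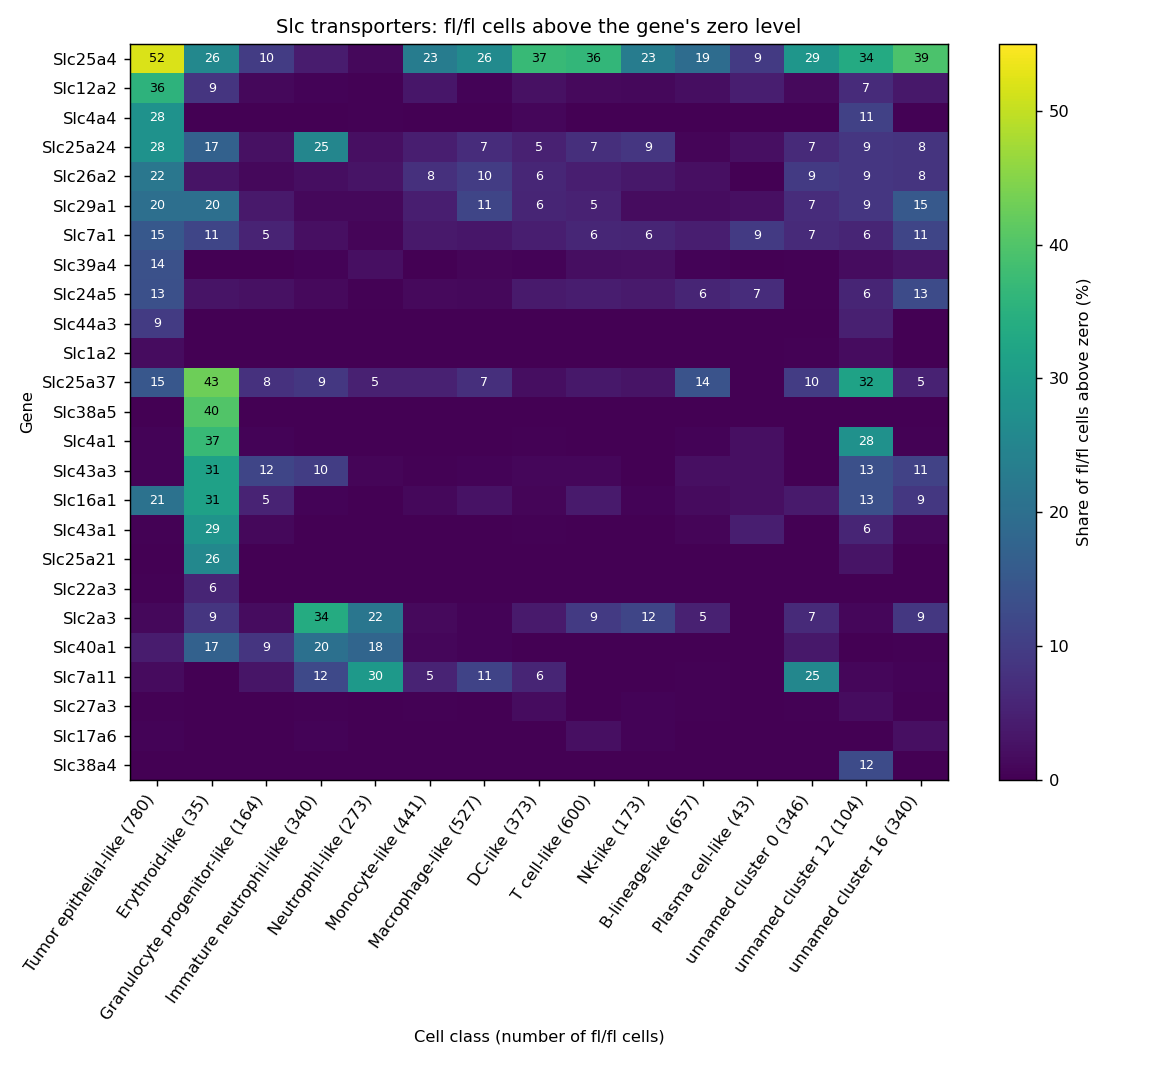
Share of fl/fl cells above the gene's zero level (%, colour, printed from 5 upward) for the 25 Slc genes (rows) in each cell class (columns, with the number of fl/fl cells). Rows are ordered by leading class: 11 genes lead in Tumor epithelial-like and 8 in Erythroid-like cells, while Slc2a3, Slc40a1 and Slc7a11 lead in neutrophils and their precursors.

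Tumor epithelial-like cells, marked by Krt8, Krt18 and Krt19, numbered 780 in the fl/fl library, and 11 of the 25 genes passed 10% in them, beside 48.4% of all genes. The ion transporters were the largest group. Slc12a2, which brings sodium, potassium and chloride into the cell, was above zero in 277 cells (35.5%, 32.1% to 38.99%), with a mean scaled value of 0.957 (SD 2.29 over cells). Its next highest share was 8.57% in Erythroid-like cells. Slc4a4, the sodium bicarbonate cotransporter of ductal epithelium, was above zero in 218 cells (27.9%, 24.8% to 31.2%), in 10.6% of unnamed cluster 12, and otherwise in at most 1.07% of a named class. In a Fibroblast-like class found at a clustering resolution of 2 it reached 20% (11 of 55), beside 35.6% of Tumor epithelial-like cells. Slc26a2, a sulfate transporter, stood at 21.8% of tumor cells and at 9.68% of Macrophage-like cells. Slc24a5, a sodium, potassium and calcium exchanger known from melanosomes, stood at 13.5%, and at 12.6% (43 of 340) in the unnamed cycling cluster led by Stmn1 and Pclaf.

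The other carriers of tumor cells covered mitochondria, nucleosides, amino acids, lactate and zinc. Slc25a4, which exchanges ADP and ATP across the inner mitochondrial membrane, was above zero in 404 of 780 cells (51.8%, 48.2% to 55.4%), but also in 37% of DC-like and 36.3% of T cell-like cells. Slc25a24, a calcium-regulated carrier of ATP-magnesium and phosphate, was above zero in 27.9% of tumor cells and in 25.3% (20.8% to 30.3%) of Immature neutrophil-like cells, and these intervals overlap. Slc29a1, an equilibrative nucleoside transporter, was at 20.1% (17.4% to 23.1%), and was above zero in 7 of only 35 Erythroid-like cells (8.44% to 36.9%). In the unnamed cycling cluster led by Stmn1 and Pclaf it stood at 15.3% (11.6% to 19.6%). Slc7a1, the main importer of arginine and lysine, was at 15.1%, beside 11.4% of Erythroid-like cells and 11.5% of that cycling cluster. By mean fl/fl value, Plasma cell-like cells stood highest for Slc7a1. Slc16a1, a proton-linked lactate and pyruvate transporter, was at 20.6%, below its 31.4% in Erythroid-like cells, where the interval ran from 16.9% to 49.3%. Slc25a37 was at 14.9%. Slc39a4, a zinc importer, was above zero in 106 tumor cells (13.6%, 11.3% to 16.2%) and in at most 2.31% of any other named class. Outside the 10% limit, Slc44a3, a choline transporter-like protein, was above zero in 74 tumor cells (9.49%), in 5 cells of unnamed cluster 12 and in no cell of another named class. Slc1a2, a glutamate transporter known from astrocytes, was above zero in 15 tumor cells (1.92%, 1.08% to 3.15%), in 2 cells of unnamed cluster 12 and in 1 of unnamed cluster 0. It was above zero in no cell of another named class. At a clustering resolution of 2, a Fibroblast-like class of 55 fl/fl cells had Slc44a3 in 9.09% and Slc1a2 in 3.64%. Tumor epithelial-like cells then had 12.15% and 2.60%.

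Tumor cells fell into clusters 1 and 11, which differed in how many genes were above zero, with medians of 206 and 108.5. In cluster 1 Slc29a1 was above zero in 27.1% of 558 fl/fl cells (23.4% to 30.9%), and in cluster 11 in 2.70% of 222 (0.998% to 5.79%). Slc7a1 showed 20.4% against 1.80%, and Slc12a2 45.5% against 10.4%. Slc25a4 had 36.04% in cluster 11, against 58.1% in cluster 1. Cluster 11 was led by Lmna, Iigp1 and S100a6 and passed the naming limit narrowly, with a marker score of 0.501 against the limit of 0.5. At a clustering resolution of 2 the Tumor epithelial-like class was smaller, with 576 fl/fl cells, and Slc12a2 was above zero in 45.3% of them. The tumor shares thus depend on which cells carry the name. The part of the lower gene number in these shares was not tested.

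Red cell precursors formed the second group. The Erythroid-like class is a single cluster of 35 fl/fl and 63 cKO cells, led by Car2, Ctse, Cpox and Ermap, so its shares are imprecise and it is under the 50 cells asked of the counts by class. Slc4a1 (band 3), the chloride and bicarbonate exchanger of the red cell membrane, was above zero in 13 of 35 cells (37.1%, 21.5% to 55.1%), with a mean of 3.31 (SD 4.62), while no class of 50 or more cells passed 0.641%. Slc25a37, the mitochondrial iron importer of heme synthesis, was above zero in 15 cells (42.9%, 26.3% to 60.7%), and in 14.2% of B-lineage-like cells. Slc38a5 was above zero in 14 fl/fl cells, and all 14 were among the 35 Erythroid-like cells (interval 23.9% to 57.9%).

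The remaining erythroid-led genes carry amino acids, purine bases, lactate and dicarboxylic acids. Slc43a1 was above zero in 10 of 35 cells (28.6%, 14.6% to 46.3%), and Slc43a3, whose family number places it with amino acids but which is known for purine bases, in 11 (31.4%). Slc43a3 also reached 11.6% of Granulocyte progenitor-like and 10.0% of Immature neutrophil-like cells. Slc25a21, a mitochondrial carrier of oxodicarboxylates, was above zero in 9 Erythroid-like cells (25.7%), in 1 tumor cell and in 3 cells of unnamed cluster 12. Slc22a3, an organic cation transporter, was above zero in only 5 fl/fl cells in all, 2 of them Erythroid-like. Genes of the erythroid list lay above zero in other classes too: 4 of its 9 genes reached 10% in Tumor epithelial-like cells, where Slc4a1 stood at 0.641% and Slc38a5 at 0 of 780 cells.

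Unnamed cluster 12 held hemoglobin and collagen genes together (104 fl/fl cells). In it Slc4a1 was above zero in 27.9% and Slc25a37 in 31.7% of cells. Slc38a4, a neutral amino acid transporter, was above zero in 13 fl/fl cells of the whole library, and all 13 lay in this cluster (12.5%, 6.83% to 20.4%). At a clustering resolution of 2 the cluster split. The 13 cells then all lay in a Fibroblast-like class of 55 fl/fl cells (23.6%), and the Erythroid-like class grew to 84 fl/fl cells, with Slc4a1 and Slc25a37 each above zero in 50%. The shares of Slc38a5, Slc43a1 and Slc16a1 were then 16.7% each, that of Slc43a3 15.5% and that of Slc25a21 14.3%.

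For the 5 genes with the widest range of fl/fl class means, the 3 genes with the most similar profile over the 12 named classes were found by Pearson's r of the class means. All 5 are Slc genes whose mean is highest in Erythroid-like cells, and many genes lay near r of 1. Slc38a5 lay nearest to Sox6, Abcg4 and Epor, and Slc25a21 to Epb42, Hbq1b and Atp1b2, with r rounding to 1 and 81 genes over 0.99 in each case. Slc4a1 lay nearest to Hba-a2, Hbb-bs and Hba-a1. Slc25a37 lay nearest to Nxpe2 (r = 0.996), Mfsd2b and Abcb4. Slc43a1 lay nearest to Slc4a1 (r = 0.991), Alad and Hbb-bs. All 12 points come from 1 library.

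Neutrophils and their precursors formed the third group. Neutrophil-like cells are mature cells marked by Csf3r, Cxcr2 and Il1r2, and Immature neutrophil-like cells carry the granule genes Camp, Ngp and Ltf. Of the 25 genes 3 passed 10% in Neutrophil-like cells (all genes: 9.85%), 5 in Immature neutrophil-like cells (all genes: 23.4%) and 1, Slc43a3, in Granulocyte progenitor-like cells (all genes: 21.9%). Slc7a11, which imports cystine for glutathione synthesis, was above zero in 81 of 273 Neutrophil-like cells (29.7%, 24.3% to 35.5%), with a mean of 1.38 (SD 2.89). It was at 12.1% of Immature neutrophil-like, 11.01% of Macrophage-like and 5.44% of Monocyte-like cells, and at 0 of 173 NK-like and 0 of 600 T cell-like cells. In unnamed cluster 0, where nearly all barcodes are shared, it was above zero in 88 of 346 fl/fl cells (25.4%).

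Slc2a3, a high-affinity glucose transporter, was above zero in 115 of 340 Immature neutrophil-like cells (33.8%, 28.8% to 39.1%) and 59 of 273 Neutrophil-like cells (21.6%, 16.9% to 26.97%). By mean the order was the reverse, 0.509 against 1.02 (SD 1.54 and 2.74), and the share of cells at least 2 SD above zero was 12.1% against 18.3%. The Immature neutrophil-like class joined cluster 4 (led by Camp, Ngp and Chil3) and cluster 8 (Ifitm6, Ltf and S100a8). Slc2a3 was above zero in 21.2% of cluster 4 (16.1% to 27.2%) and 58.8% of cluster 8 (49.2% to 67.9%), where the median number of genes above zero was 88 and 127.5. It reached 11.6% of NK-like cells, and was at 0.569% of Macrophage-like and 1.15% of Tumor epithelial-like cells.

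Slc40a1 (ferroportin), the only known cellular iron exporter, was above zero in 69 Immature neutrophil-like cells (20.3%, 16.1% to 24.97%) and 49 Neutrophil-like cells (17.9%, 13.6% to 23.03%), and the intervals overlap. By mean the mature cells stood higher, at 0.909 against 0.281 (SD 2.56 and 1.38). Granulocyte progenitor-like cells had 8.54% and Tumor epithelial-like cells 4.23%. In Macrophage-like cells, the type best known for iron export, it was above zero in 3 of 527 fl/fl cells (0.569%, 0.117% to 1.66%).

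The other classes had few Slc genes at 10% or more. Slc25a4 accounted for the single one in DC-like (all genes: 22.9%), Monocyte-like (all genes: 19.2%) and T cell-like cells (all genes: 16.6%). B-lineage-like cells had 2, Slc25a4 (19.5%) and Slc25a37 (14.2%), beside 11.1% of all genes. NK-like cells had 2, Slc25a4 (23.1%) and Slc2a3 (11.6%), beside 16.5%. Macrophage-like cells had 3, Slc25a4 (26.4%), Slc29a1 (11.4%) and Slc7a11 (11.01%), beside 26.6%. Genes under 10% of a class could still differ between its clusters. Slc17a6, a vesicular glutamate transporter known from neurons, was above zero in 12 of 207 fl/fl cells of the T cell cluster led by Cd8a and Nkg7 (5.80%, 3.03% to 9.91%), in 0 of 298 cells of the cluster led by Lef1 and Tcf7, and in 1 of 95 of the cluster led by Tnfrsf4 and Cd4. It was also above zero in 8 of 340 fl/fl cells of the unnamed cycling cluster (2.35%, 1.02% to 4.58%), an interval that overlaps that of the Cd8a cluster. Slc27a3, a fatty acid transport protein with acyl-CoA synthetase activity, was above zero in 6 of 51 fl/fl cells of the DC cluster led by Fscn1 and Ccr7 (11.8%, 4.44% to 23.9%).

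**Figure D3:**
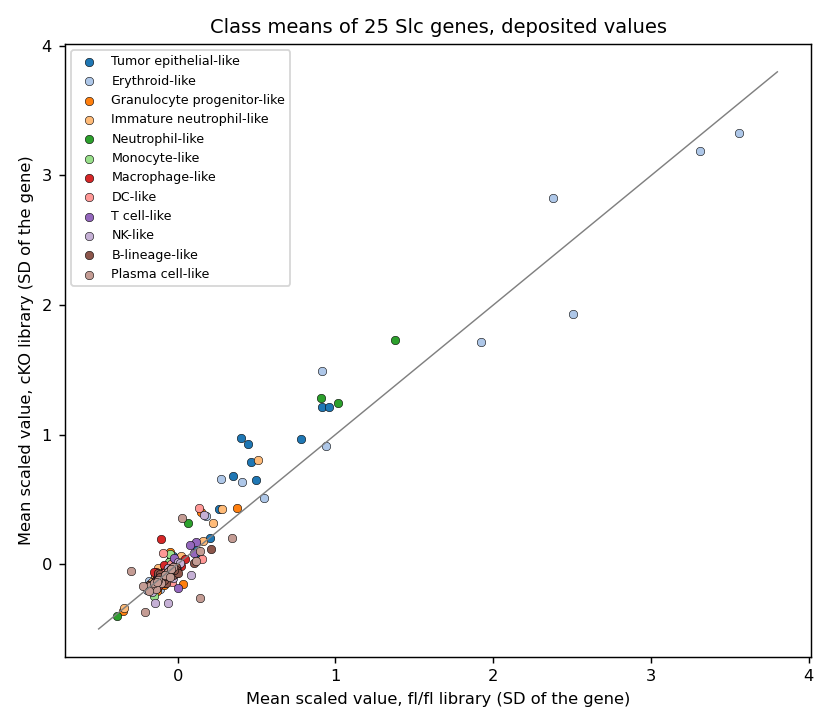
Mean scaled value (SD of the gene) of each of the 25 Slc genes in each of the 12 named classes, fl/fl on the x axis and cKO on the y axis, coloured by class, with the line of equal values. The points above 2 on the x axis are all Erythroid-like, and the Neutrophil-like points above 0.9 and most tumor points lie above the line.

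Differences between the libraries are mean cKO minus mean fl/fl scaled values, in SDs of a gene, and not changes in expression. With 1 library per genotype there was no test and no replicate check. A difference of at least 0.1 in either direction was counted. The cKO values looked shifted by an amount that varied over cells. An estimate with that inferred shift removed therefore stands beside the deposited value where it could be made, followed by a second form of it. Both forms were taken within each cluster and weighted by its cKO cells. In classes of several clusters they therefore also leave out differences in cluster makeup between the libraries. The parts of makeup and shift in a changed value were not separated. The deposited values had 20 higher and 6 lower pairs of gene and class over 9 classes, and the estimate had 18 and 7. These were mostly other pairs: of the 17 higher and 5 lower deposited pairs that had an estimate, 5 and 0 also passed 0.1 in the same direction in it.

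In Neutrophil-like cells 4 of 25 genes were higher in the cKO library (all genes: 5.6%) and 0 lower (all genes: 4.55%). Slc40a1 had means of 0.909 (fl/fl, 273 cells) and 1.28 (cKO, 226 cells), a difference of 0.376, but the estimates were -0.136 and -0.362. Slc7a11 had 1.38 and 1.73, a difference of 0.354, with estimates of 0.1703 and -0.0304, and 0.203 without shared barcodes. Slc2a3 had 1.02 and 1.25, a difference of 0.229, with estimates of -0.142 and -0.342. Slc39a4, above zero in only 6 of 273 fl/fl cells, had a difference of 0.252 and estimates of -0.0624 and -0.157. The direction of these differences thus turned with the removal of the shift, except for Slc7a11 in the first form. Another count, chosen after seeing the data, was the share of cells at least 2 SD above the fl/fl zero level. How far the shift moves this share was not tested. It was 24.9% in fl/fl (68 of 273, 19.9% to 30.5%) and 23.9% in cKO cells (54 of 226, 18.5% to 30%) for Slc7a11. For Slc40a1 it was 16.9% and 19.9%, and for Slc2a3 18.3% and 17.3%, each inside the other library's interval.

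In Immature neutrophil-like cells 2 genes were higher (all genes: 4.85%) and 0 lower (all genes: 7.45%). Slc2a3 had means of 0.509 (340 cells) and 0.804 (249 cells), a difference of 0.295. Cluster 8, where its share was high, made up more of the cKO class (154 of 249 cells) than of the fl/fl class (114 of 340). With the clusters weighted as in fl/fl the difference was -0.0390. Slc40a1 was 0.141 higher, with estimates of -0.258 and -0.365. With the clusters weighted as in fl/fl its difference was 0.0549, under the limit of 0.1.

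In Macrophage-like cells 1 gene was higher (all genes: 8.1%) and 0 lower (all genes: 4.3%). It was Slc40a1, with means of -0.105 (527 cells) and 0.192 (352 cells), a difference of 0.297. Unlike in neutrophils, the estimates kept the direction, at 0.344 and 0.293, and without shared barcodes the difference was 0.301. Under the alternatives tested the number of higher genes in this class ran from 0 to 2, so Slc40a1 was under the limit in at least 1 of them. Cells at least 2 SD above the zero level numbered 3 of 527 in fl/fl (0.569%, 0.117% to 1.66%) and 15 of 352 in cKO (4.26%, 2.40% to 6.93%). None of these 18 cells had a shared barcode, and 2 of the 15 cKO cells were possible doublets.

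These Slc40a1-high cells lay almost wholly in cluster 13, led by C1qc, C1qa, C1qb and Apoe, with 14 of 144 cKO cells (9.72%, 5.42% to 15.8%) and 3 of 177 fl/fl cells (1.69%, 0.351% to 4.87%). The values below compare cells chosen for Slc40a1 and are a description without a test. In the 14 cKO cells Hmox1, which breaks down heme, had a mean of 4.28, against 0.0606 in the other 130 cKO cells of the cluster. Hebp1, a heme-binding protein, had 6.07 against 1.11, Blvrb, the biliverdin reductase, 2.69 against 0.668, Trf (transferrin) 2.92 against 1.52, and Hfe, a regulator of iron uptake, 2.37 against 0.577. These are 5 of the 14 measured genes of the metal handling list. Fth1, a ferritin subunit, was equal at 0.595 and 0.596, and the other 8 had means of at most 0.0296 in either group. Among these, Steap3, a metalloreductase, stood lower in the 14 cells (-0.772 against -0.117), as did Mt1, a metallothionein (-0.255 against 0.0296). Spic and Vcam1, known from the iron-recycling macrophages of the spleen and named here after their values were seen, had 3.62 against 0.0727 and 7.46 against 1.30. In the 3 fl/fl cells Spic and Vcam1 had means of -0.0856 and -0.172, and Trf, Blvrb and Hfe also stood below the other 174 fl/fl cells of the cluster. Hebp1 (3.25 against 0.665) and Hmox1 (0.535 against 0.216) stood above them, as in the cKO cells. The neutrophil genes S100a8, S100a9, Camp and Ngp and the erythroid genes Hba-a1, Hbb-bs and Alas2 were 2 SD above zero in 0 of the 14 cells. The macrophage genes went both ways between the 14 and the other 130 cKO cells. C1qc (5.73 against 4.12) and C1qb (4.20 against 3.98) stood higher in the 14 cells, and C1qa (2.78 against 4.18) and Apoe (2.49 against 3.97) lower. Csf1r, also named after its values were seen, had 5.67 against 1.30.

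**Figure D4:**
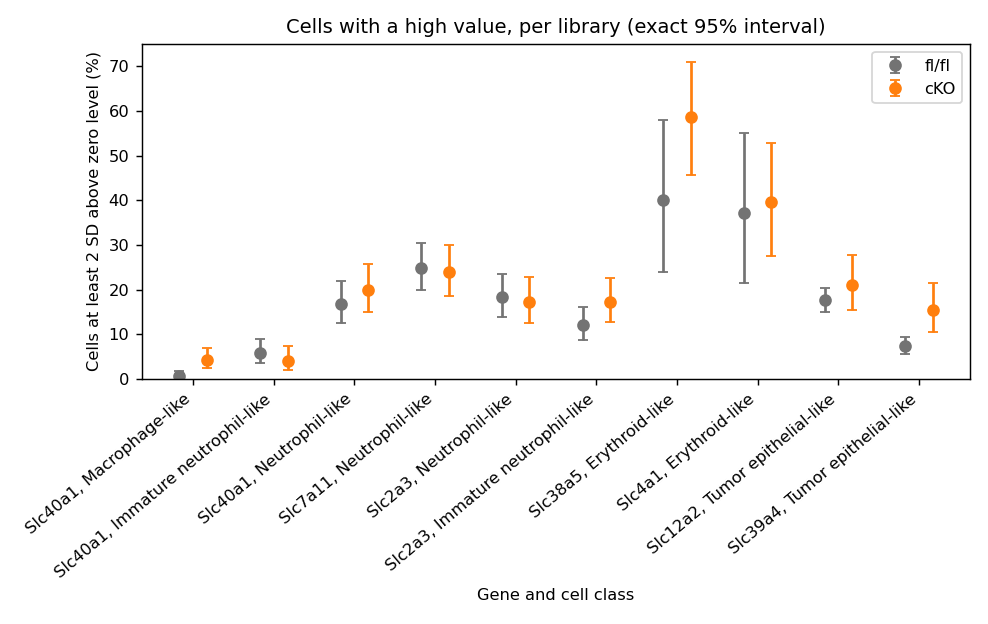
Share of cells (%, y axis) at least 2 SD above the gene's fl/fl zero level for 10 pairs of gene and class (x axis), grey for fl/fl and orange for cKO, with exact 95% intervals for counting error. For Slc40a1 in Macrophage-like cells the shares are 0.569% and 4.26%, and in Neutrophil-like cells the intervals of both libraries overlap for all 3 genes.

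In DC-like cells 2 genes were higher (all genes: 7.9%) and 2 lower (all genes: 5.85%). Genes named here and in Monocyte-like, Macrophage-like and T cell-like cells that lay under 5% of fl/fl cells were chosen after their values were seen. Slc27a3 was 0.296 higher, with estimates of 0.209 and 0.264, and 0.364 without shared barcodes. In the cluster led by Fscn1 and Ccr7, the 51 fl/fl cells held 6 at the cap of 10 and the rest at zero level, while the 22 cKO cells ran from 1.27 to 10 with a median of 3.21 and 2 at the cap. The fl/fl cells were thus at either end and most cKO cells between them. Slc7a1 was 0.176 higher, with estimates of 0.163 and 0.114, and 0.151 without shared barcodes. Slc26a2 was -0.102, with estimates of -0.0280 and -0.0571, and -0.102 without shared barcodes. Slc25a4 was -0.108, with no estimate, and without shared barcodes it was -0.0978, under the limit of 0.1. In Monocyte-like cells 1 gene was higher (all genes: 3.45%) and 0 lower (all genes: 1.9%). It was Slc7a1, at 0.125, with estimates of 0.0478 and -0.00837, and without shared barcodes it was -0.0733.

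In Tumor epithelial-like cells 9 of the 25 genes were higher in the cKO library (all genes: 28.1%) and 0 lower (all genes: 12.1%). The cKO library held 181 such cells, under the 200 asked by the rule for naming, so the genes given were chosen after their values were seen. Slc39a4 had means of 0.403 and 0.971, a difference of 0.569, and Slc26a2 0.449 and 0.928, a difference of 0.479. The others were Slc16a1 (0.331), Slc44a3 (0.318), Slc4a4 (0.298), Slc12a2 (0.255), Slc25a4 (0.188), Slc29a1 (0.163) and Slc25a24 (0.154). Of the 7 with an estimate, 5 turned negative in the first form (-0.1695 to -0.0477), while Slc25a24 kept 0.155 and Slc16a1 0.0974. Cluster 1 made up 163 of 181 cKO but 558 of 780 fl/fl cells. With the clusters weighted as in fl/fl, 6 of the 9 stayed at 0.1 or above: Slc39a4 (0.376), Slc26a2 (0.285), Slc44a3 (0.199), Slc4a4 (0.169), Slc16a1 (0.133) and Slc12a2 (0.102). Slc25a4 (0.0473), Slc29a1 (0.00293) and Slc25a24 (-0.0289) did not. For Slc25a4 and Slc12a2 no estimate with the shift removed could be made. For Slc39a4 the share of cells 2 SD above zero was 7.31% in fl/fl (5.58% to 9.36%) and 15.5% in cKO (10.5% to 21.6%), with a median of 5.23 and 2.60 among those cells.

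**Figure D5:**
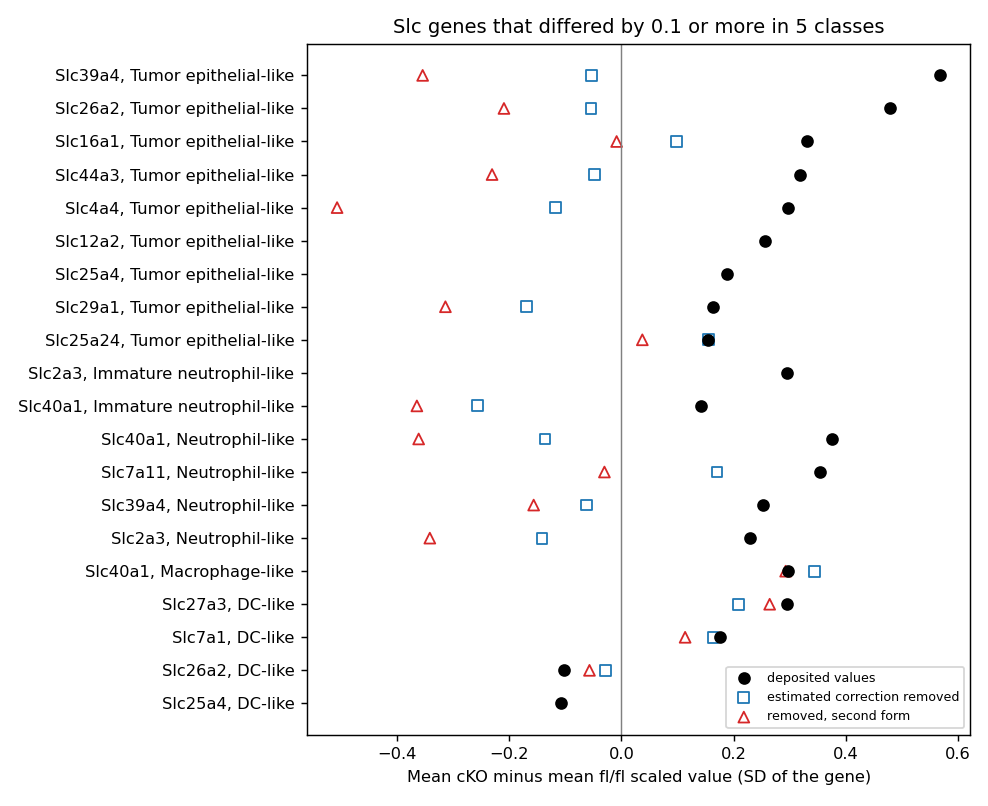
Mean cKO minus mean fl/fl scaled value (x axis, SD of the gene) for Slc genes with a deposited difference of at least 0.1 in 5 classes (y axis), as black dots, with the estimates after removal of the shift as blue squares and red triangles (absent where none could be made). The black dots of all Neutrophil-like and Tumor epithelial-like pairs lie right of zero and their triangles mostly left of it, whereas for Slc40a1 in Macrophage-like cells all 3 lie between 0.293 and 0.344.

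Among the lymphoid classes, NK-like cells had 4 genes past the limit, T cell-like cells 1 and B-lineage-like cells 0. In T cell-like cells 0 genes were higher (all genes: 2.8%) and 1 lower (all genes: 3.7%): Slc16a1 was -0.186, with estimates of 0.121 and 0.0484. In B-lineage-like cells 0 were higher (all genes: 3.1%) and 0 lower (all genes: 2.75%), and Slc25a37 had the lowest named value, -0.0942, with estimates of -0.145 and -0.203. In NK-like cells 1 was higher (all genes: 7.6%) and 3 lower (all genes: 6.75%). With 173 and 141 cells this class too is under 200 per library. Slc2a3 was 0.212 higher, and Slc26a2 (-0.238), Slc7a1 (-0.174) and Slc25a4 (-0.157) were lower, and the estimates had the opposite sign for all 4 (-0.0980, 0.223, 0.232 and 0.0857 in that order).

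Erythroid-like cells were too few in the fl/fl library for these counts. Slc38a5 had 3.56 (SD 4.64, 35 cells) and 3.33 (SD 4.07, 63 cells), Slc4a1 3.31 and 3.19, Slc25a37 2.38 and 2.83, and Slc43a1 1.92 and 1.71. For Slc4a1 the estimates with the shift removed were -0.970 and -1.13, and none could be made for Slc38a5. The share of cells at least 2 SD above zero was 37.1% and 39.7% for Slc4a1, and for Slc38a5 it was 14 of 35 and 37 of 63 cells (58.7%, 45.6% to 70.99%).

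Genes that work beside the Slc transporters were taken from lists of transporters and metabolic enzymes and assigned to the class with the highest share. Of all genes 41% led in Tumor epithelial-like, 19.9% in Erythroid-like and 8.4% in Macrophage-like cells. Among 14 channels and aquaporins 7 led in Tumor epithelial-like cells, among them Kcnn4, a calcium-activated potassium channel (32.6%), and Ano1, a calcium-activated chloride channel (20.5%). Of 4 ion pump genes Atp1b1, a subunit of the sodium pump, led there at 34.1%. Of 6 ABC transporters 3 led in Erythroid-like cells, such as Abcg2 (45.7%), and Abca1 led in Macrophage-like cells (25.2%). For iron, the transferrin receptor gene Tfrc led in Erythroid-like (54.3%), Hmox1 in Macrophage-like (48.2%) and the metalloreductase Steap4 in Neutrophil-like cells (14.7%). Of 10 measured genes of amino acid metabolism 4 led in Erythroid-like and 3 in Macrophage-like cells, including Arg1, the arginase that consumes what Slc7a1 imports (68.5%). Of 7 sugar genes 5 led in Macrophage-like cells, such as Ldha (76.9%), and Bsg, the chaperone of Slc16a1, led in Erythroid-like cells (68.6%), as did Slc16a1. Of 9 lipid genes 6 led in Macrophage-like cells.

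Between libraries the same limit of 0.1 was counted for these lists on the deposited values, with no estimate of the shift and no weighting of clusters. Cluster 1 made up more of the cKO than of the fl/fl Tumor epithelial-like cells, and its part in these counts was not tested. In Tumor epithelial-like cells, where 28.1% of all genes were higher and 12.1% lower, 5 of 7 sugar genes were higher and 0 lower, with a median difference of 0.303, against a median of 0.00389 over all genes. The channels had 5 of 14 higher and 1 lower, with a median of 0.0507. The amino acid genes had 1 of 10 higher and 4 lower, with a median of -0.0442. In Macrophage-like cells, where 8.1% of all genes were higher and 4.3% lower, the metal handling list had 3 of 14 higher and 2 lower (median 0.0389, all genes 0.000394), the sugar list 0 of 7 higher and 2 lower, and the lipid list 2 of 9 in each direction.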

How the data were processed

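The authors deposited a table of scaled scores per gene and cell and a table of UMAP coordinates, which are scores of another kind and were not analysed here. The submitters' processing notes name Seurat 3.1.4, Cell Ranger 3.0.0 and the builds mm10 and GRCm38, without their roles. Filters on cells and doublet removal are not given in the sources used here. The shift of the cKO values was inferred from the deposited scores, and whether it moved them toward the fl/fl library was not tested.

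The members, lists and comparisons were chosen with earlier results of these data known. The tools were Python 3.11.15 with scanpy 1.11.5, pandas 2.3.3, matplotlib 3.10.9, scipy 1.17.1, numpy 2.4.6, igraph 0.11.9 and scikit-learn 1.9.0. Cells of both libraries were clustered on the 1973 other genes (30 components, 15 neighbours, Leiden resolution 1). To be named, a cluster needed a marker score (mean difference of a class's markers from all other cells) of 0.5 or more, a score for the next cell family below 0.5 times that, 3 or more measured markers, and 10 leading genes that did not favour another class. Dendritic subtypes were joined after seeing the data. A cell was above zero if it exceeded the zero level by more than 0.001. Members at 10% of a class were given with values, and between libraries those at 5% or more of fl/fl cells with a difference of at least 0.1, or the 3 highest and lowest, in classes of 200 cells per library. The members with the 5 widest ranges of class means got their 3 most alike genes.

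The shift was estimated as the 0.3 quantile of a gene over the 30 nearest cKO cells, wherever each cluster of the class had under 40% of its fl/fl cells above zero. The second form used 50 neighbours and 0.5 times the share at zero as the quantile. Both forms compared the libraries within clusters, weighted by the cKO cells of each cluster, whereas the deposited difference used plain class means. The estimate was developed on these data. Its accuracy for these libraries is unknown. Cells with at least 3 markers, each at least 1 SD above zero, from each of 2 families were called possible doublets (365 fl/fl and 241 cKO cells) and kept.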

Additional observations from a re-analysis of the deposited data

How the results depend on the processing

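No paired analysis was possible because each genotype has 1 library, and for the same reason no replicate could be left out. The 15 genes at 10% of a class (30 pairs of gene and class) came to 15 or 16 genes and 29 to 33 pairs under other clusterings, without possible doublets, with a stricter zero level and without shared barcodes. Of 24 shares of cells above zero tested, 12 left their 95% interval at a resolution of 2 and 3 with 15 components, and 0 under the other alternatives. Leaving out shared barcodes and the count of cells 2 SD above zero were chosen after seeing the data. The 20 higher pairs fell to 9 in the second form of the removal, and the 6 lower pairs rose to 15 in that form and fell to 1 when counted from 0.2. The cause was not tested.

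Named differences that turned under both forms of the removal, first form first, were as follows. In Neutrophil-like cells these were Slc40a1 (-0.136 and -0.362), Slc2a3 (-0.142 and -0.342) and Slc39a4 (-0.0624 and -0.157), and Slc7a11 turned in the second form only (-0.0304). In Immature neutrophil-like cells Slc40a1 turned (-0.258 and -0.365), and Slc2a3 turned with clusters weighted as in fl/fl (-0.0390). In T cell-like cells Slc16a1 turned (0.121 and 0.0484), and in Monocyte-like cells Slc7a1 in the second form only (-0.00837). In NK-like cells these were Slc26a2 (0.223 and 0.185), Slc7a1 (0.232 and 0.138), Slc25a4 (0.0857 and 0.0700) and Slc2a3 (-0.0980 and -0.191). In Tumor epithelial-like cells these were Slc39a4 (-0.0534 and -0.355), Slc26a2 (-0.0543 and -0.210), Slc29a1 (-0.1695 and -0.314), Slc4a4 (-0.118 and -0.507) and Slc44a3 (-0.0477 and -0.231). Slc16a1 turned there in the second form only (-0.00865), and Slc25a24 with clusters weighted as in fl/fl (-0.0289). The cause was not tested. Cluster weights follow from the unequal makeup of the class by construction. In classes of several clusters both forms of the removal also leave out that makeup, so a turn there is not due to the shift alone by construction. Depth per cell is unknown, so a share at 0 limits cells above zero and not cells that express a gene.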
